A study of Mus musculus with 8 samples.

Results

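The genes described here set how large a muscle fibre is: the ubiquitin ligases Fbxo32 and Trim63, the FOXO factors Foxo1 and Foxo3, the growth signals Mstn, Igf1 and Igfbp5, the translation brakes Ddit4 and Eif4ebp1, and the transcription factor Klf15. They are 10 of the genes on an Affymetrix mouse array and were chosen by symbol, with earlier results of these data known. A probe set, the group of probes that reads 1 transcript, was used where the platform annotation gave it to that gene alone. That left 22 probe sets of 9 genes, out of 34958 such probe sets of 18194 genes. Mstn (myostatin, a secreted inhibitor of muscle growth) had no probe set annotated to it alone and was not analysed here. All 9 remaining genes passed the filter on low levels, as did 13587 genes in all.

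Total RNA came from palates, taken at the rear, of BALB/c pups on postnatal day 1. During pregnancy their mothers carried a pump under the skin that delivered sterile saline, or nicotine in 1 of 3 doses: 1.5, 3.0 and 4.5 mg/kg/day. With 2 arrays to a group there were 4 groups, and the labels call the arrays biological replicates. The sources used here do not say whether RNA was pooled over pups or drawn from separate litters, and p-values therefore reflect the spread among these samples, which may be technical. As described, all groups shared the strain, the age, the labelled tissue and the pump surgery. Genes of other tissues differed in level between the groups, as given below.

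In a muscle fibre, protein is built and broken down at the same time, and the balance sets its mass. IGF1 acts through its receptor, AKT and mTOR to raise translation, and AKT keeps FOXO factors out of the nucleus. When that signal is weak, or when glucocorticoids act, FOXO factors and the glucocorticoid receptor switch on Trim63 and Fbxo32, whose ligases mark muscle proteins for the proteasome.

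Trim63 and Klf15 are shown by the stretch of genome around their transcription start, as the genes whose windows held a match to the patterns marked here. Both are known targets of FOXO factors or of the glucocorticoid receptor and had 2 of the larger differences between nicotine at 4.5 mg/kg/day and saline. Ddit4, a glucocorticoid target with a larger difference than Klf15, held no match. Each run is the RefSeq promoter window of build GRCm38.p6, 250 bases before the start and 50 after it. Capitals in Trim63 (chr4:134314870-134315169, plus strand) mark a glucocorticoid receptor pattern (GNACA and TGTNC with 3 bases between them) and a FOXO pattern, TGTTTAC. Capitals in Klf15 (chr6:90462326-90462625, plus strand) mark the E-box CACGTG.
Trim63: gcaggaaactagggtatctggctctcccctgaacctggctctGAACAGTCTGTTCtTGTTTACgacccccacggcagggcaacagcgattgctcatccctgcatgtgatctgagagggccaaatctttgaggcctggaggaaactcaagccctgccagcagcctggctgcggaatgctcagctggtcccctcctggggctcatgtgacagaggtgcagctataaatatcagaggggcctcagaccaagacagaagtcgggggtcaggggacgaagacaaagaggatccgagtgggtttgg
Klf15: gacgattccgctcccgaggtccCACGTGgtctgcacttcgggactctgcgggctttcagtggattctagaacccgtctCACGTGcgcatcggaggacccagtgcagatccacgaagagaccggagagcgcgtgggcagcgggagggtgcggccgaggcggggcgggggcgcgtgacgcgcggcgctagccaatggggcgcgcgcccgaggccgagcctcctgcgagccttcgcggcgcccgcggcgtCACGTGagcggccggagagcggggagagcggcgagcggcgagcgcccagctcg
In Trim63 the glucocorticoid pattern begins 208 bases upstream of the start and the FOXO pattern 194 bases upstream, with no overlap between them. In Klf15 the E-box occurs 3 times, beginning 228, 172 and 3 bases upstream. Both strands were searched. Of 32851 promoter windows of this length, 3.65% held the FOXO pattern, 0.475% the glucocorticoid pattern and 7.15% the E-box, and 5 windows (0.0152%) held both of the patterns marked in Trim63. Windows were listed for 8 of the 10 genes, all but Fbxo32 and Eif4ebp1, and none of the other 6 held any of the 3 patterns. In all 14 patterns were searched, and these 3 were chosen after the matches had been seen. The genes shown are those whose windows held them, so the matches are descriptions of letters and not of binding.

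The arrays differed in more than the growth genes. The summed intensity of 35 skeletal muscle fibre genes with a probe set, of 36 listed, lay between 70407 and 99872 in the nicotine arrays and between 43715 and 61550 in saline arrays. Of these, 17 of 35 rose in the mean of the doses against saline, where 4.75% of all genes rose, and the list's median difference was 0.94 on the log2 scale. Myoblast genes had medians of 6.96 to 7.42 in nicotine arrays and 6.26 and 5.82 in saline arrays, and 8 of 15 rose in the mean of the doses, against the same 4.75% of all genes. The median level of 14 stomach genes was at most 4.85 in nicotine arrays and 7.56 and 7.85 in saline arrays, and that of intestine genes at most 5.20 in nicotine arrays and 9.71 and 8.14 in saline arrays. The median of 18 liver genes was 9.84 in replicate 2 of nicotine 1.5 and 4.48 to 4.63 in the other 5 nicotine arrays, against 8.37 and 11.51 in saline arrays. Heart genes had a median of 8.60 in that same replicate 2 of nicotine 1.5 and at most 5.64 elsewhere, and cartilage genes one of 9.27 in replicate 1 of nicotine 1.5 and at most 5.82 elsewhere. Lung genes had a median of 6.59 to 9.79 in 5 nicotine arrays and 4.67 in replicate 1 of nicotine 1.5, against 4.73 and 4.85 in saline arrays. None of the 10 tested passed limma's test in the mean of the doses (3 had an unadjusted p under 0.05, against 30.7% of all genes). Among 11 tested brown fat genes, 6 rose at 3.0 mg/kg/day against saline (list median difference 3.20) and 3 at 4.5 mg/kg/day (1.57), where 1.35% and 2.91% of all genes rose. Kidney genes had medians of at most 4.75 in nicotine arrays and 5.34 and 8.71 in saline arrays, blood genes 4.68 to 6.96 in nicotine arrays and 5.33 and 8.55 in saline arrays, and smooth muscle genes 7.96 to 9.91 in nicotine arrays and 10.16 and 8.86 in saline arrays. For the labelled tissue, 12 genes of palate and facial patterning had medians of 5.40 to 5.93. Of these, 9 were tested and 1 rose in the mean of the doses, with a list median difference of 0.66. Some, such as Meox2 (6.40 to 8.80), Mn1 (6.25 to 8.48) and Osr1 (5.97 to 8.05), lay above the level filter of 4.94 on every array. Tbx22 (4.17 to 4.46) lay below it on every array. The 3′ to 5′ intensity ratio of the actin control, a sign of RNA integrity, was 1.70 ± 0.07 in saline, 1.29 ± 0.13 at 1.5, 1.10 ± 0.06 at 3.0 and 1.05 ± 0.14 at 4.5 mg/kg/day (mean ± SD, n = 2 each). In bulk tissue, fewer fibres and less RNA per fibre cannot be told apart. Nor can treatment be told apart from tissue makeup, since stomach and intestine genes were high in both saline arrays and in no nicotine array. The part of these differences in the results was not tested, beyond the values given with arrays left out or centred on muscle genes.

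**Figure D1:**
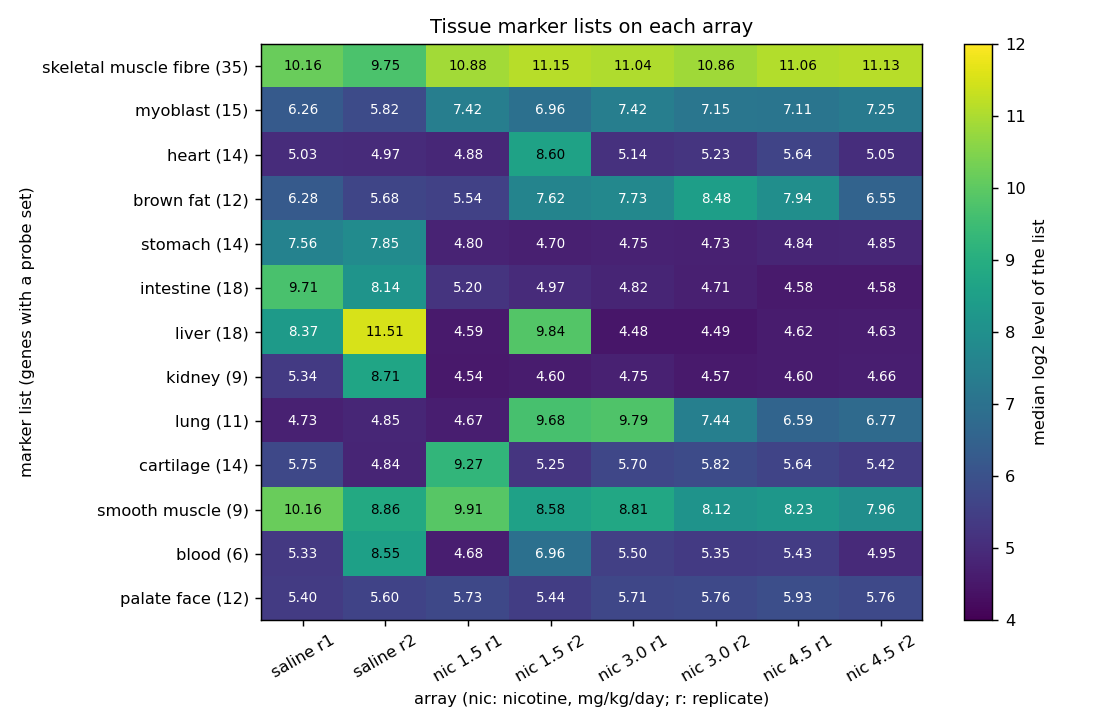
Heat map of marker lists (rows, with the number of genes that had a probe set) by array (columns, from saline to nicotine 4.5 mg/kg/day); colour and printed number give the median log2 level of the list. Muscle fibre genes lie lower in both saline arrays than in all nicotine arrays. Stomach genes are high in saline only, and lung genes are high in 5 of the 6 nicotine arrays. Replicate 2 of nicotine 1.5 stands apart in heart genes and, among the nicotine arrays, in liver genes.

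Levels below are log2(intensity + 16) after quantile normalization, for the probe set with the highest mean level of each gene. The added 16 understates the change of weakly expressed genes, and levels are not compared between genes. Each comparison used limma over all 8 arrays, two-sided, with p-values adjusted over all 13587 genes, and a gene is said to have risen or fallen where its adjusted p was under 0.05.

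Both muscle ubiquitin ligases had their highest levels with nicotine at 4.5 mg/kg/day, and Trim63 had the largest difference of the 9 genes. For Trim63 (MuRF1, the ligase that acts on thick filament proteins) the deposited intensities were 182 and 94.8 in saline, 166 and 846 at 1.5, 377 and 297 at 3.0, and 864 and 2169 at 4.5 mg/kg/day. The corresponding normalised log2 levels were 7.53 and 6.73 in saline, 7.59 and 9.79 at 1.5, 8.57 and 8.28 at 3.0, and 9.73 and 11.21 at 4.5 mg/kg/day. Both arrays at 4.5 lay above both saline arrays, and so did every other nicotine array, though replicate 1 of nicotine 1.5 was only just above the higher saline array. Trim63 averaged 10.47 ± 1.05 at 4.5 and 7.13 ± 0.56 in saline (SD, n = 2 each), a log2 difference of 3.34 ± 0.77 (SE), or 10.1-fold, with an adjusted p of 0.0504, just short of the threshold. Over 21 alternative settings the adjusted p lay between 0.0145 and 0.166. Without replicate 1 or 2 of nicotine 1.5, whose values are far apart, the difference was 3.36 and 3.35. No array at 1.5 enters this difference, and leaving 1 out removes the spread of that pair from the fit. Of the genes tested, 0.0515% had a difference at least that high.

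Fbxo32 (atrogin-1, the F-box subunit of a ligase that acts in wasting muscle) had the same highest and the same lowest array as Trim63. Its levels were 6.54 and 5.69 in saline, 6.08 and 7.48 at 1.5, 6.88 and 6.54 at 3.0, and 7.60 and 9.22 at 4.5 mg/kg/day. Replicate 2 of nicotine 4.5 was the highest array and replicate 2 of saline the lowest, and replicate 1 of nicotine 1.5 lay between the saline arrays. Fbxo32 averaged 8.41 ± 1.14 at 4.5 and 6.12 ± 0.59 in saline, a difference of 2.29 ± 0.65 (4.90-fold, adjusted p = 0.0769), which did not pass. Its 2 other probe sets gave 2.39 and 2.16 for the same comparison. The first of these passed (adjusted p = 0.0408) where each gene was read from its probe set of largest variance. That variance was taken over all 8 arrays, so the choice favours probe sets that differ between groups. The count over all genes at this dose was then 1346, against 934 in the main fit. Across the 8 arrays Fbxo32 and Trim63 had a Pearson r of 0.97 and a Spearman rho of 0.95, the points sharing dose groups and tissue makeup.

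The FOXO factors, which switch on both ligases when AKT is inactive, moved less. Foxo1 had levels of 7.70 and 7.70 in saline, 7.29 and 8.04 at 1.5, 8.03 and 8.11 at 3.0, and 8.74 and 8.33 at 4.5 mg/kg/day. All arrays at 3.0 and 4.5 lay above saline, while the pair at 1.5 lay on either side of it. At 4.5 against saline the difference was 0.83 ± 0.28 (adjusted p = 0.108). The probe sets of Foxo1 disagreed in size: 2 others above the filter gave 1.74 and 1.34 in that comparison, and at 1.5 mg/kg/day they gave 0.71 and 0.35, where the one used gave -0.030. Where each gene was read from its probe set of largest variance, which for Foxo1 was the one at 1.74, Foxo1 passed at 4.5 mg/kg/day (adjusted p = 0.0169) and in the mean of the doses, by 1.05 (adjusted p = 0.0304). As for Fbxo32, the choice by variance favours probe sets that differ between groups. With the mean of its probe sets Foxo1 passed at 4.5 mg/kg/day, by 0.97 (adjusted p = 0.0405). Foxo3 had levels of 8.36 and 8.08 in saline, 8.28 and 8.92 at 1.5, 8.13 and 7.73 at 3.0, and 8.72 and 9.25 at 4.5 mg/kg/day. Its lowest array was at 3.0 and its highest at 4.5, and the pair at 4.5 lay above saline by 0.76 ± 0.30 (adjusted p = 0.152). A further Foxo3 probe set above the filter gave 0.89, and 1 probe set that names several genes was left out.

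Igf1 and Igfbp5, the growth factor and a binding protein that carries it in tissue, were higher in all nicotine arrays without passing the test at any dose. Igf1 had levels of 9.43 and 8.56 in saline, 10.32 and 9.62 at 1.5, 10.07 and 9.91 at 3.0, and 10.20 and 10.16 at 4.5 mg/kg/day. Every nicotine array lay above both saline arrays, with no order among the doses. Igf1 averaged 10.18 ± 0.02 at 4.5 and 8.99 ± 0.62 in saline, a difference of 1.19 ± 0.34 (2.28-fold, adjusted p = 0.0806), and 3 other probe sets gave 0.81, 1.22 and 1.13. In this comparison Igf1 passed with the mean of its probe sets (adjusted p = 0.0448), with arrays centred on their median (0.0497) and without replicate 1 of saline (0.0321). Igfbp5 had levels of 9.58 and 9.69 in saline, 10.44 and 9.96 at 1.5, 9.95 and 9.81 at 3.0, and 9.91 and 10.06 at 4.5 mg/kg/day. Its highest array was replicate 1 of nicotine 1.5, followed by replicate 2 of nicotine 4.5, and the pair at 4.5 lay above saline by 0.35 ± 0.21 (adjusted p = 0.309). Its second probe set gave a larger difference, 0.89.

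The translation brakes held the 2 calls of the 9 genes at 4.5 mg/kg/day. Ddit4 (REDD1, a stress and glucocorticoid target that inhibits mTOR complex 1) rose at that dose. Its levels were 8.20 and 8.07 in saline, 7.46 and 9.06 at 1.5, 8.16 and 8.01 at 3.0, and 10.67 and 10.01 at 4.5 mg/kg/day. Both arrays at 4.5 were higher than all 6 others, the 3.0 pair overlapped saline, and the 1.5 pair lay on either side of it. Ddit4 averaged 10.34 ± 0.47 at 4.5 and 8.14 ± 0.09 in saline, a difference of 2.20 ± 0.49 (4.59-fold, adjusted p = 0.0479). The call is close to the threshold and was kept in 7 of 21 alternative settings, in which the adjusted p ran between 0.00952 and 0.196. It was lost without replicate 1 or 2 of saline (adjusted p of 0.0841 and 0.113), of nicotine 3.0 (0.106 and 0.105) and of nicotine 4.5 (0.196 and 0.108).

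Eif4ebp1 (4E-BP1, which binds the cap-binding factor eIF4E until mTOR phosphorylates it) differed from Ddit4 in its pattern, being high at every dose. Its levels were 9.29 and 8.76 in saline, 10.07 and 10.34 at 1.5, 10.18 and 10.07 at 3.0, and 10.17 and 10.62 at 4.5 mg/kg/day. All 6 nicotine arrays lay above both saline arrays, and the 3 doses overlapped one another. Eif4ebp1 averaged 10.39 ± 0.32 at 4.5 and 9.03 ± 0.38 in saline, a rise of 1.36 ± 0.25 (2.57-fold, adjusted p = 0.0304). In the mean of the doses against saline it rose by 1.21 ± 0.21 (2.32-fold, adjusted p = 0.0193). Single doses of 1.5 and 3.0 mg/kg/day gave 1.18 ± 0.25 and 1.10 ± 0.25, with adjusted p-values of 0.0654 and 0.0665. The call at 4.5 was lost without replicate 2 of saline (adjusted p = 0.0741) and without replicate 1 or 2 of nicotine 3.0 (0.0827 and 0.0813) or of nicotine 4.5 (0.0817 and 0.111). That in the mean of the doses was lost without replicate 2 of saline (0.0793) or either nicotine 3.0 array (0.0686 and 0.0657). The probe set used is of a kind whose probes can match other transcripts. A specific probe set gave 1.56 at 4.5 mg/kg/day and another 0.54. Read from the first of these, its probe set of largest variance, Eif4ebp1 passed at 1.5 mg/kg/day, by 1.20 (adjusted p = 0.0295). At 3.0 mg/kg/day it passed by 1.12 (adjusted p = 0.0288). Here too the choice by variance favours probe sets that differ between groups.

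Klf15, a factor induced by glucocorticoids that promotes amino acid breakdown in muscle, had the widest scatter within a group. Its levels were 5.81 and 7.04 in saline, 5.68 and 8.61 at 1.5, 6.75 and 6.59 at 3.0, and 8.34 and 8.53 at 4.5 mg/kg/day. The pair at 4.5 was close together and above both saline arrays. The highest array of all was replicate 2 of nicotine 1.5, which stood apart in heart genes and, among nicotine arrays, in liver genes. At 4.5 against saline Klf15 differed by 2.01 ± 0.88 (4.02-fold, adjusted p = 0.183), which did not pass. Without replicate 1 or 2 of nicotine 1.5 that difference was 2.02 and 2.02. No array at 1.5 enters it, and leaving 1 out removes the wide scatter of that pair from the fit.

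**Figure D2:**
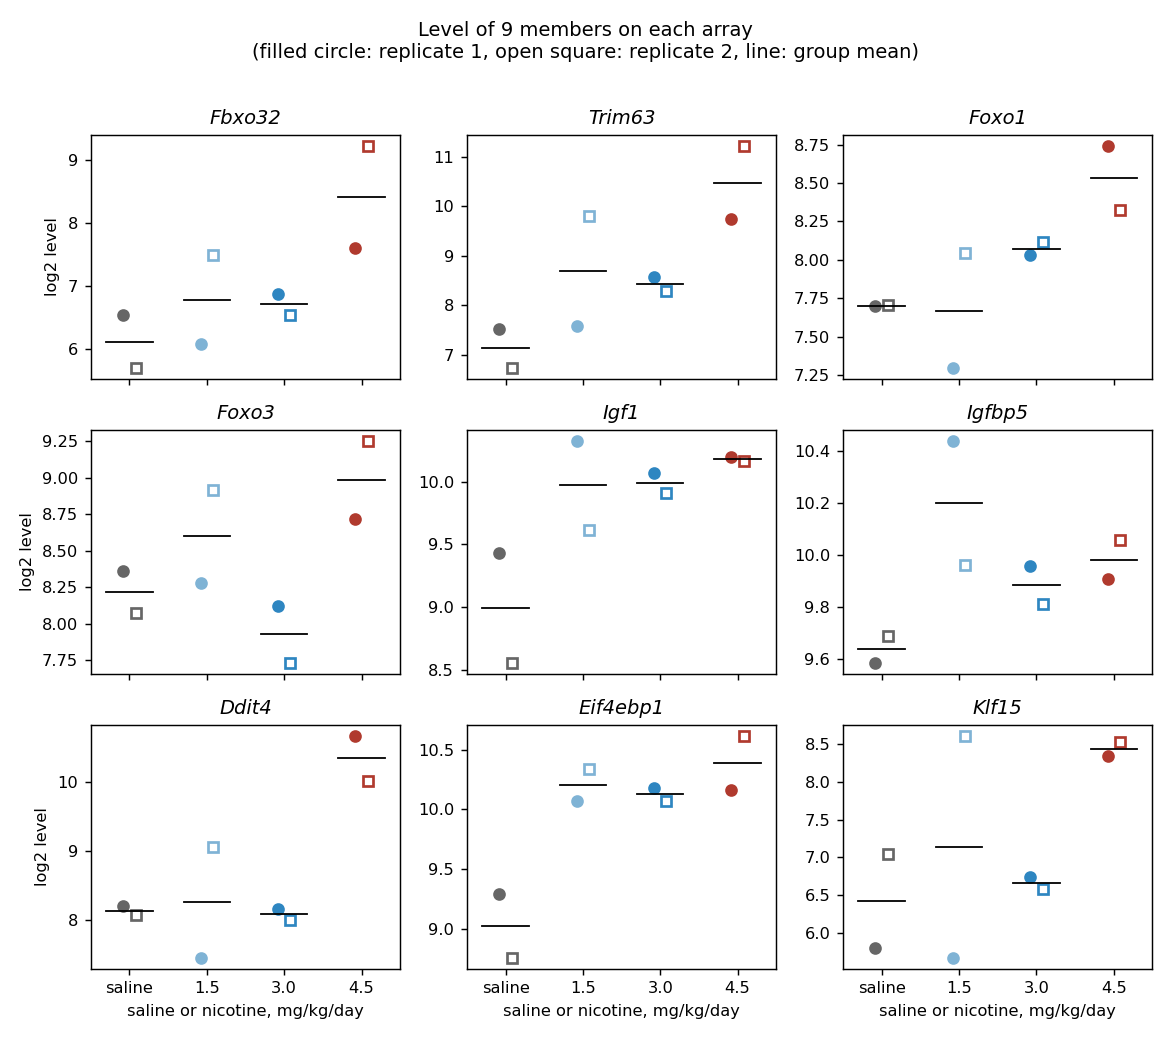
Normalised log2 level of each of the 9 genes on the 8 arrays, 1 panel a gene with its own vertical range, by dose from saline to nicotine 4.5 mg/kg/day; circles are replicate 1, squares replicate 2 and lines group means. Trim63, Fbxo32, Ddit4 and Klf15 are highest on average at 4.5, whereas Eif4ebp1 and Igf1 are about equally high at all 3 doses.

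Taken as a set at 4.5 mg/kg/day against saline, 2 of the 9 genes rose and none fell, where 6.87% of all genes tested changed and 2.91% rose. At an unadjusted p under 0.05, 7 of the 9 were higher, against 15.8% of all genes. Both arrays at 4.5 lay above both saline arrays for all 9 genes, against 32.2% of all genes. The median difference of the 9 genes was 1.36 on the log2 scale, and that of all genes 0.064. Between 0.0515% (Trim63) and 29.7% (Igfbp5) of all genes had a difference at least as high as a given member, and for Fbxo32, Ddit4 and Klf15 that share was 0.309%, 0.427% and 0.626%.

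Averaged over the 3 doses and set against saline, 1 of the 9 genes rose (Eif4ebp1), where 10.2% of all genes changed and 4.75% rose. All 6 nicotine arrays lay above both saline arrays for 4 of the 9 genes (Trim63, Igf1, Igfbp5 and Eif4ebp1), against 16.8% of all genes. Igf1 differed by 1.05 ± 0.28 (adjusted p = 0.0587) and Trim63 by 2.07 ± 0.63 (adjusted p = 0.0807). The other 6 had differences of 0.28 (Foxo3) to 1.18 (Fbxo32), with adjusted p-values of 0.178 or more.

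The lower doses gave no call among the 9 genes. At 1.5 mg/kg/day 2.48% of all genes changed and 0.729% rose, and at 3.0 mg/kg/day 3.73% changed and 1.35% rose. By limma's unadjusted p under 0.05, 3 of the 9 differed from saline at 1.5 and 2 at 3.0 mg/kg/day, against 21.1% and 25.0% of all genes. Both nicotine arrays lay above both saline arrays for 4 of 9 genes at 1.5, against 27.4% of all genes, and for 6 of 9 at 3.0, against 34.8%. Trim63 differed from saline by 1.56 ± 0.77 at 1.5 and by 1.30 ± 0.77 at 3.0 mg/kg/day, with adjusted p-values of 0.300 and 0.337. Ddit4 differed by 0.12 ± 0.49 at 1.5 and by -0.053 ± 0.49 at 3.0 mg/kg/day. All these comparisons share the 2 saline arrays, so their values are set side by side and not correlated.

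**Figure D3:**
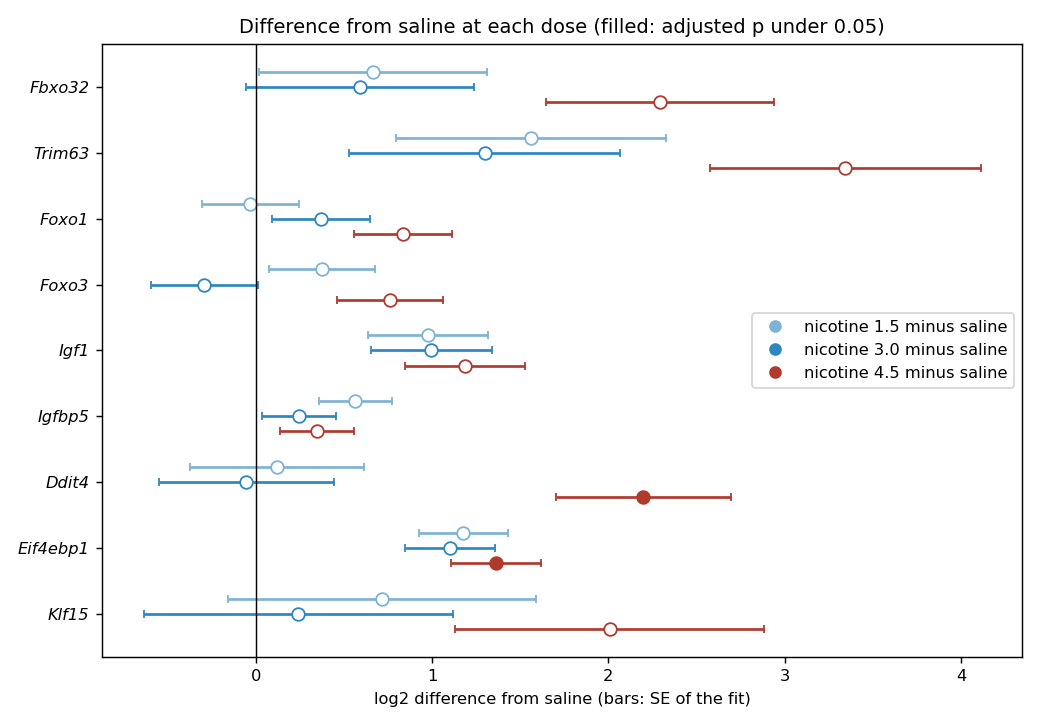
Log2 difference of each dose from saline for the 9 genes, with the standard error of the fit; filled points have an adjusted p under 0.05. The filled points are Ddit4 and Eif4ebp1 at 4.5 mg/kg/day, and the bars of Trim63, Fbxo32 and Klf15 are the widest.

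Comparisons between doses do not involve saline. None of the 9 genes, and none of all genes (0%), passed in any of the 3 pairs of doses. At an unadjusted p under 0.05, limma gave 4 of the 9 genes at 4.5 against 3.0 mg/kg/day (Fbxo32, Trim63, Foxo3 and Ddit4), where 3.94% of all genes reached it. It gave 3 of the 9 at 4.5 against 1.5 mg/kg/day (Fbxo32, Foxo1 and Ddit4), against 7.09% of all genes, and none at 3.0 against 1.5, against 10.8%. Ddit4 averaged 10.34 ± 0.47 at 4.5 and 8.08 ± 0.11 at 3.0 mg/kg/day, a difference of 2.25 ± 0.49 (unadjusted p = 0.00279). Trim63 differed by 2.05 ± 0.77 and Fbxo32 by 1.70 ± 0.65 in that same pair. Over the doses as a line from saline to 4.5 mg/kg/day, no member passed, where 0.802% of all genes did and 0.287% with a rising slope, and 6 of the 9 had an unadjusted p under 0.05, against 27.2% of all genes. The slope of Trim63 was 0.65 ± 0.17 log2 units per mg/kg/day (adjusted p = 0.0719), that of Fbxo32 0.45 ± 0.14 (adjusted p = 0.0975) and that of Igfbp5 0.048 ± 0.055.

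Muscle fibre genes were higher in every nicotine array, so the 9 genes were also read with each array centred on the median of the fibre list. This scaling moved the median of all genes by -1.14 at 4.5 mg/kg/day and by -1.07 in the mean of the doses, both against saline. At 4.5 mg/kg/day Trim63 was the member that rose relative to fibre genes, by 2.20 ± 0.63 (adjusted p = 0.0145). Of all genes 70.1% changed, 0.405% upward and 69.7% downward. Before centring the difference of Trim63 was larger, 3.34 ± 0.77, and did not pass (adjusted p = 0.0504). With most genes changed, the adjustment over all genes asked less of each p-value. After centring, Ddit4 differed by 1.05 ± 0.44 (adjusted p = 0.0555), Fbxo32 by 1.15 ± 0.53 (adjusted p = 0.0755) and Klf15 by 0.86 ± 0.78 (adjusted p = 0.331). Eif4ebp1 and Igf1 lay near 0 on this scale, with differences of 0.22 ± 0.25 and 0.043 ± 0.35. Foxo1, Foxo3 and Igfbp5 had differences of -0.31, -0.38 and -0.80, opposite in sign to the values before centring, and none of them passed at this dose. In the mean of the doses these 3 genes fell relative to fibre genes, by 0.68, 0.79 and 0.68, where 78.4% of all genes changed and 78.1% fell (0.331% rose).

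**Figure D4:**
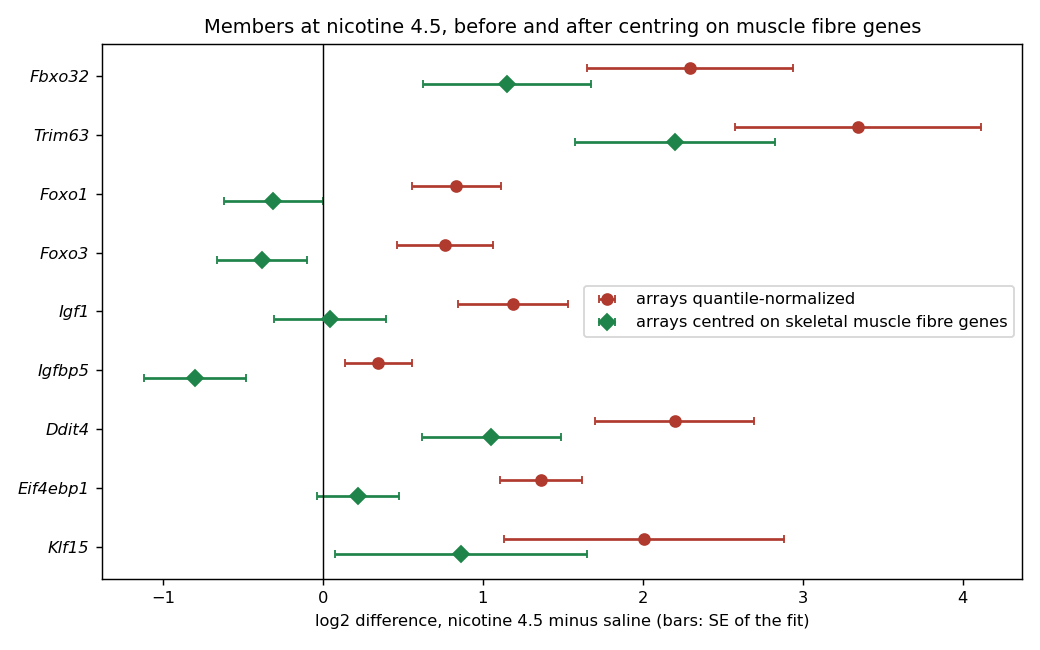
Log2 difference of nicotine 4.5 mg/kg/day from saline for the 9 genes, with arrays quantile-normalized (circles) and with arrays centred on the median of the skeletal muscle fibre genes (diamonds); bars are standard errors of the fit. Centring shifts all genes to the left by about the same amount, leaving Trim63 furthest above 0 and Foxo1, Foxo3 and Igfbp5 below it.

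Without the 2 arrays highest in liver genes, replicate 2 of saline and replicate 2 of nicotine 1.5, a single saline array remained, which was assumed to vary like the other groups. That saline array was itself high in liver and intestine genes (medians of 8.37 and 9.71). The difference in these genes from the remaining nicotine arrays was therefore kept in this setting. At 4.5 mg/kg/day against saline, Trim63 then differed by 2.97 (adjusted p = 0.0385), Ddit4 by 2.16 (adjusted p = 0.0175) and Klf15 by 2.63 (adjusted p = 0.00231). Fbxo32 differed by 1.88 (adjusted p = 0.118) and Eif4ebp1 by 1.11 (adjusted p = 0.0549), so that the call of Eif4ebp1 was lost. In the mean of the doses Eif4ebp1 also lost its call, with 0.92 (adjusted p = 0.0735), and the member that passed was Klf15, by 1.12 (adjusted p = 0.0284). At 1.5 mg/kg/day Fbxo32, Ddit4 and Klf15 had differences of -0.46, -0.75 and -0.13 without these arrays, where they were 0.66, 0.12 and 0.72 with them.

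Other genes of the same pathways were read from 5 lists of 112 genes, of which 102 were tested. Of these, 10 rose and 2 fell in the mean of the doses, and at 4.5 mg/kg/day 8 rose and none fell. Of all genes, 10.2% changed and 4.75% rose in the mean of the doses, and 6.87% changed and 2.91% rose at 4.5 mg/kg/day. The median difference of the 102 genes was 0.26 in the mean of the doses and 0.30 at 4.5 mg/kg/day, both against saline. The lists were chosen with earlier results of these data known, so their counts beside all genes are descriptions only.

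Among 26 tested genes of the ubiquitin and autophagy system, 6 rose and 1 fell in the mean of the doses, where 10.2% of all genes changed and 4.75% rose. Cdkn1a, a cell cycle inhibitor and FOXO target, had levels of 8.92 and 8.74 in saline, 10.07 and 9.92 at 1.5, 9.55 and 9.51 at 3.0, and 10.39 and 10.68 at 4.5 mg/kg/day. Every nicotine array was above saline, and the pair at 4.5 was the highest, with a rise of 1.70 ± 0.18 over saline (adjusted p = 0.00539). Fbxo31, an F-box subunit of a ubiquitin ligase, had levels of 6.40 and 6.48 in saline, 6.57 and 7.58 at 1.5, 7.52 and 7.45 at 3.0, and 8.15 and 8.67 at 4.5 mg/kg/day. It rose by 1.97 ± 0.34 at the top dose against saline (adjusted p = 0.0258), and its slope over dose, 0.42 ± 0.07, had an adjusted p of 0.0475. That slope passed in only 5 of 21 alternative settings (adjusted p of 0.0245 to 0.158) and was lost without either array of saline, nicotine 3.0 or nicotine 4.5. Its call at the top dose was kept in 15 of 21 and was lost without replicate 2 of saline or any array at 3.0 or 4.5. The call of Cdkn1a there was kept without any 1 of the 8 arrays. Both calls were lost with arrays centred on muscle fibre genes, where Cdkn1a differed by 0.56 (adjusted p = 0.0881) and Fbxo31 by 0.83 (adjusted p = 0.0512). Trim54, a relative of Trim63 at the sarcomere, rose by 1.54 ± 0.32 in the mean of the doses, Foxo4 by 0.73 ± 0.15 and Asb2, a muscle ubiquitin ligase subunit, by 1.67 ± 0.38. The lysosomal protease Ctsl fell by 1.17 ± 0.26 in the same comparison (adjusted p = 0.0383). These 4 calls were kept in 13 (Trim54), 9 (Foxo4), 10 (Asb2) and 13 (Ctsl) of 21 alternative settings, and each was lost without replicate 2 of saline or either array at 3.0. Some were also lost without replicate 1 of saline (Foxo4, Asb2 and Ctsl), replicate 1 of nicotine 1.5 (Ctsl), replicate 2 of nicotine 1.5 (Foxo4 and Trim54), replicate 1 of nicotine 4.5 (Asb2) or replicate 2 of nicotine 4.5 (Foxo4 and Asb2). With arrays centred on muscle fibre genes, Trim54, Foxo4 and Asb2 lost these calls and Ctsl kept its own. With the mean of their probe sets, Foxo4 gave 0.38 (adjusted p = 0.145) and Ctsl -0.50 (adjusted p = 0.123), and neither passed.

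Of 28 tested genes between the IGF receptor and mTOR, 1 rose and 1 fell in the mean of the doses, where 10.2% of all genes changed. Irs1, an adaptor of the insulin and IGF receptors, rose by 0.94 ± 0.21 (adjusted p = 0.0397). Eif4ebp2, the close relative of Eif4ebp1, fell by 0.95 ± 0.19 (adjusted p = 0.0295). Its levels on the probe set used were 9.28 and 9.44 in saline, 8.32 and 7.83 at 1.5, 8.87 and 8.73 at 3.0, and 8.54 and 8.16 at 4.5 mg/kg/day, so that all nicotine arrays lay below saline. The probe sets of Eif4ebp2 disagreed in direction. Read from its probe set of largest variance, it rose by 1.46 in the mean of the doses (adjusted p = 0.0127). The mean of its probe sets gave 0.29 (adjusted p = 0.187). With arrays centred on muscle fibre genes, Irs1 differed by -0.13 in the mean of the doses (adjusted p = 0.614). The calls of Irs1 and Eif4ebp2 were kept in 10 and 12 of 21 alternative settings. Both were lost without replicate 2 of saline, either array at 3.0 or replicate 2 of nicotine 4.5, that of Eif4ebp2 also without replicate 1 of saline, and that of Irs1 also without either array at 1.5 or replicate 1 of nicotine 4.5. Pik3ca and Mtor, the kinases of the pathway, had differences of 0.79 ± 0.20 and 0.61 ± 0.16 with adjusted p-values of 0.0543 and 0.0582.

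None of 10 IGF-binding and related genes passed limma's test in the mean of the doses, while 6 had an unadjusted p under 0.05, which 30.7% of all genes had. Igfbp2 differed by -2.15 ± 0.58 (adjusted p = 0.0601). Igfbp1, a liver product, had levels of 9.78 and 12.04 in saline, 4.58 and 11.20 at 1.5, 4.27 and 4.22 at 3.0, and 4.57 and 4.85 at 4.5 mg/kg/day. The 3 high arrays were the 3 that were high in liver genes. Igfbp6 and Htra1, a protease that cleaves IGF-binding proteins, differed by 0.94 ± 0.26 and 1.13 ± 0.39.

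None of 19 tested genes of the myostatin and activin pathway passed limma's test in any comparison with saline. Of these, 4 had in the mean of the doses an unadjusted p under 0.05, which 30.7% of all genes had. The list's median difference was 0.11 in the mean of the doses, close to the 0.066 of all genes. Ltbp3, a carrier of TGF-beta family ligands, differed by 0.72 ± 0.24 and the activin subunit Inhba by -0.63 ± 0.23. Acvr2b, the receptor that binds myostatin, differed by 0.44 ± 0.17 and Bmp7 by -0.46 ± 0.18.

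Among 19 genes that respond to glucocorticoids or to KLF15, 3 rose in the mean of the doses and none fell, where 4.75% of all genes rose. The list median was 0.59 against 0.066 for all genes. Pdk4, a kinase that turns off pyruvate oxidation, had levels of 9.13 and 8.84 in saline, 9.29 and 9.92 at 1.5, 10.72 and 10.74 at 3.0, and 11.33 and 11.69 at 4.5 mg/kg/day. No array at a higher dose lay below one at a lower dose, and Pdk4 rose by 2.53 ± 0.26 at 4.5 against saline (adjusted p = 0.00488), a call kept in all 21 alternative settings. Its slope of 0.58 ± 0.05 per mg/kg/day passed (adjusted p = 0.0295), and did so in 14 of 21 settings. The slope did not pass with replicate number as a block (0.0732), without the 2 arrays highest in liver genes (0.0612), or without either array of saline, either array at 3.0 or replicate 1 of nicotine 4.5 (0.0730 to 0.137). Per1, a clock gene with a glucocorticoid response element, had levels of 5.94 and 6.09 in saline, 7.02 and 8.14 at 1.5, 6.29 and 6.44 at 3.0, and 8.43 and 8.00 at 4.5 mg/kg/day. It was lower in the pair at 3.0 than in the pairs at 1.5 and 4.5, and it rose by 2.20 ± 0.36 at 4.5 against saline (adjusted p = 0.0219). Zbtb16, a glucocorticoid-induced zinc finger gene, rose by 2.85 ± 0.62 at 4.5 (adjusted p = 0.0437). The calls of Per1 and Zbtb16 at this dose were kept in 16 and 9 of 21 settings, and both were lost without replicate 2 of saline or any array at 3.0 or 4.5. Bcat2, the enzyme that starts branched-chain amino acid breakdown and a known KLF15 target, rose by 0.76 ± 0.18 in the mean of the doses (adjusted p = 0.0450), a call lost on leaving out any 1 of the 8 arrays.

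**Figure D5:**
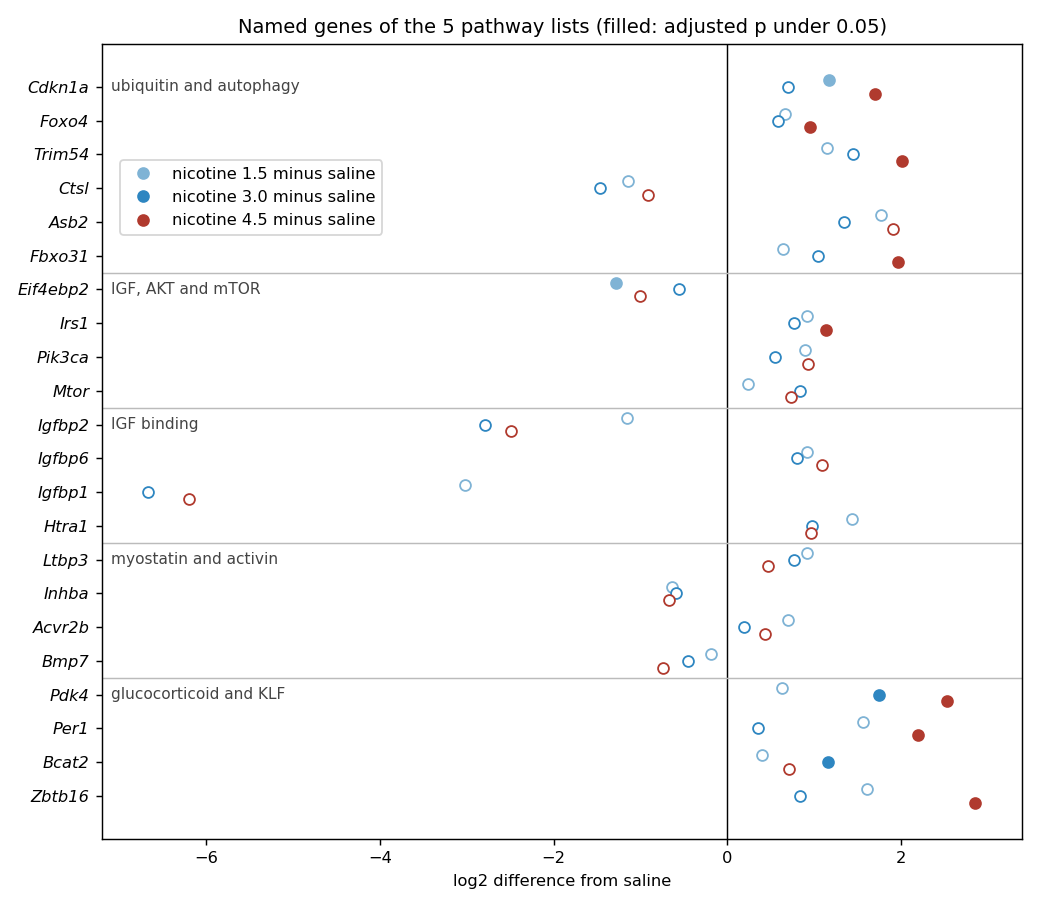
Log2 difference of each dose from saline for the named genes of the 5 pathway lists; filled points have an adjusted p under 0.05. Zbtb16, Pdk4, Per1, Trim54 and Fbxo31 are furthest to the right at 4.5 mg/kg/day, and Igfbp1 lies far to the left with no filled point.

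For each of the 9 genes, the 3 genes most alike over the 8 arrays were found among 13578 others by Pearson r. The most alike to Fbxo32 were Retreg1 (r = 0.985, rho = 0.952), Tsc22d3 (r = 0.981, rho = 0.976) and Lrrc2 (r = 0.981, rho = 0.952). Tsc22d3, known as GILZ, is a textbook glucocorticoid-induced gene and was on the list of such genes above. Those most like Trim63 were Spsb1 (r = 0.989), Utp3 (r = 0.988) and Smc5 (r = 0.986). Ddit4 was most like Ikbkg (r = 0.958), E4f1 (r = 0.956) and Zbtb2 (r = 0.951), and Klf15 most like Ppm1d (r = 0.974), Fam107a (r = 0.970) and Dok1 (r = 0.968).

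Eif4ebp1 was most like Sptb, a spectrin of the membrane skeleton (r = 0.994), Pde4dip (r = 0.992) and Map3k20 (r = 0.992, rho = 1). Igf1 was most like the tendon genes Thbs4 (r = 0.987) and Tnmd (r = 0.986) and the matrix gene Cthrc1 (r = 0.986). Igfbp5 was most like Mfap2 (r = 0.988), Scarf2 (r = 0.978) and Creb3l1 (r = 0.978). Foxo1 was most like Cdk5rap1 (r = 0.976), Gm16740 (r = 0.968) and Gm9828 (r = 0.967), and Foxo3 most like Gnl2 (r = 0.975), Ank3 (r = 0.957) and Ercc4 (r = 0.953). These are the highest of many correlations over few arrays that share dose groups and tissue makeup, and they describe likeness only.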

How the data were processed

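Gene expression was measured on 8 Affymetrix arrays of newborn mouse palate, 2 in each of 4 groups named by the labels. The deposited values were linear intensities, 1 per probe set for 45101 probe sets. The method by which the authors summarised and scaled these intensities was not given in the sources used here. Array medians lay between 20.7 and 25.4 intensity units, and the number of arrays limits the precision. No column of values was left unused.

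Gene symbols came from the platform annotation: 34958 probe sets named 1 gene, of which 34754 were matched to the reference gene table, and 932 named several and were left out. Values were taken as log2(intensity + 16), and arrays, whose medians differed by up to 0.17 on that scale, were quantile-normalized. The probe set with the highest mean level stood for its gene, and genes under the 40th percentile of probe set levels (4.94) were left out. A linear model of group means was fitted in R 4.3.3 by limma 3.58.1 with moderated variances (residual degrees of freedom 4, total 6.85). Benjamini-Hochberg adjustment ran over 13587 genes in each of 8 comparisons. The procedure was run on simulated data in which genes varied independently. Differences in tissue makeup between arrays were not part of that simulation.

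Replicate numbers were not taken to pair the samples. Deviations of replicate 1 from its group mean correlated between groups at -0.22 to 0.33. These deviations also hold the differences in tissue genes between single arrays, so they cannot show whether the numbers mark a shared batch. Replicate numbers as a block, other added constants, scalings, filters and probe set choices, array weights, robust variances and the omission of arrays were tried as alternatives. The genes and lists were chosen with earlier results of these data known. The genes named are all 10 members, up to 6 genes of each pathway list by smallest p in the mean of the doses (4, and further ones only where called), and the 3 genes most like each member over the arrays.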

Additional observations from a re-analysis of the deposited data

How the results depend on the processing

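The settings were varied in 21 ways, 8 of them by leaving out 1 array. Apart from centring on muscle fibre genes, 651 of 720 differences of single members from saline kept their direction and their side of the threshold, 24 lost a call, 32 gained one and 13 changed sign. Only Ddit4 at 4.5 mg/kg/day and Eif4ebp1 at that dose and in the mean of the doses were calls in the main fit. These were kept in 7, 13 and 16 of the 21 settings, muscle centring included. The cause of the changes was not tested, except that leaving out an array leaves fewer samples and takes its pair's spread out of the fit. A stricter or looser level filter changes the number of genes adjusted over.

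In the mean of the doses 1 member passed. The number was 2 with arrays centred on their median, with the mean of a gene's probe sets and with replicate number as a block, and 3 with the probe set of largest variance. Without the 2 arrays highest in liver genes it was 1, but Klf15 in place of Eif4ebp1. It was also 3 with arrays centred on muscle fibre genes, all of them lower (Foxo1, Foxo3 and Igfbp5), and it ranged from 0 to 4 with arrays left out. At 1.5 mg/kg/day it was 0, but 1 with muscle centring and with the probe set of largest variance, and 0 to 1 with arrays left out. At 3.0 mg/kg/day it was 0, but 1 with median centring, muscle centring, the probe set of largest variance and array weights, and 0 to 1 with arrays left out. At 4.5 mg/kg/day it was 2. It was 1 with an added constant of 1, with values as deposited, with muscle centring, without a level filter, with array weights and with robust variances, 4 with median centring and 5 with the probe set of largest variance. It was 3 with the stricter filter (Trim63 gained), with the mean of probe sets (Foxo1 and Igf1 gained, Ddit4 lost) and without the liver-high arrays (Trim63 and Klf15 gained, Eif4ebp1 lost). With replicate number as a block it was 0 at 4.5 mg/kg/day. With arrays left out it ranged from 0 (without replicate 2 of saline, or any nicotine 3.0 or 4.5 array) to 4 (without either nicotine 1.5 array). At 4.5 against 1.5 mg/kg/day it was 0, but 2 (Ddit4 and Klf15) without the 2 arrays highest in liver genes and 0 to 1 with arrays left out. For the slope over dose it was 0, but 1 with muscle centring (Trim63) and with the probe set of largest variance (Foxo1), and 0 to 2 with arrays left out (Trim63 and Eif4ebp1 without replicate 2 of nicotine 1.5). The other dose pairs gave 0 in every setting.

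Muscle centring turned the sign of 19 of 36 differences. In the mean of the doses these were Foxo1 -0.68, Foxo3 -0.79, Igf1 -0.016, Igfbp5 -0.68, Ddit4 -0.31 and Klf15 -0.081. At 1.5 mg/kg/day they were Fbxo32 -0.40, Foxo3 -0.69, Igf1 -0.089, Igfbp5 -0.50, Ddit4 -0.94 and Klf15 -0.35. At 3.0 mg/kg/day they were Fbxo32 -0.40, Foxo1 -0.62, Igfbp5 -0.75 and Klf15 -0.75, and at 4.5 mg/kg/day Foxo1 -0.31, Foxo3 -0.38 and Igfbp5 -0.80. Without replicate 2 of nicotine 1.5, the differences at 1.5 mg/kg/day were -0.036 for Fbxo32, -0.68 for Ddit4 and -0.75 for Klf15, and over the arrays left out they reached 1.37, 0.93 and 2.19. Without the 2 arrays highest in liver genes they were -0.46 for Fbxo32, -0.087 for Foxo3, -0.75 for Ddit4 and -0.13 for Klf15. Foxo1 at 1.5 mg/kg/day was 0.27 with the mean of its probe sets, 0.71 with that of largest variance and -0.41 to 0.35 with arrays left out, the positive value without replicate 1 of nicotine 1.5. At 3.0 mg/kg/day Ddit4 ranged from -0.13 to 0.025 with arrays left out, being positive without replicate 1 of saline (0.013) or replicate 2 of nicotine 3.0, and Klf15 from -0.38, without replicate 1 of saline, to 0.85.

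Over all genes, the count in the mean of the doses was 1380, but 618 with array weights, 10657 with muscle centring, 849 with the block and 355 to 1490 with arrays left out. At 1.5 mg/kg/day it was 337, but 157 with a constant of 1 and with the block, 130 with array weights, 576 with the probe set of largest variance, 560 without the 2 liver-high arrays, 9300 with muscle centring and 104 to 911 with arrays left out. At 3.0 mg/kg/day it was 507, but 278 with the block, 896 without the liver-high arrays, 8079 with muscle centring and 52 to 994 with arrays left out. At 4.5 mg/kg/day it was 934, but 441 with array weights, 522 with the block, 9521 with muscle centring and 154 to 1367 with arrays left out. For the slope it was 109, but 0 with the block and without the liver-high arrays, 1 with a constant of 64, without a filter, with mean probe sets, with array weights or with robust variances, 2 with median centring, 164 with a constant of 1, 203 with values as deposited, 242 with a stricter filter, 317 with the probe set of largest variance, 4720 with muscle centring and 0 to 792 with arrays left out. Between 3.0 and 1.5 mg/kg/day it was 0, but 229 without the liver-high arrays and up to 47 with arrays left out. Between 4.5 and 1.5 mg/kg/day it was 0, but 201 without the liver-high arrays, 1 with muscle centring and up to 39 with arrays left out.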
